A study of Mus musculus with 9 samples.

Results

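The genes described here encode 10 enzymes and partners of DNA methylation and its removal, namely Uhrf1, Dnmt1, Dnmt3a, Dnmt3b, Dnmt3l, Tet1, Tet2, Tet3, Gadd45a and Gadd45b. They were chosen by symbol from a table of 23813 entries, and each was found on 1 entry. Expression was measured by RNA sequencing in 9 libraries of mouse male germ cells sorted from testis cell suspensions of pups at postnatal day 6. All mice were of the LT-11B6 line, which carries an Id4-eGfp transgene on a C57BL/6 background, so that EGFP reports the Id4 promoter, not Id4 RNA or protein itself. Of the 3 groups, the first held all EGFP-positive cells (all ID4-EGFP+, 3 libraries), the second the 1/3 of the EGFP-positive cells with the strongest antibody staining for the surface tetraspanin TSPAN8 (TSPAN8-high, 3 libraries), and the third the 1/3 with the weakest staining (TSPAN8-low, 3 libraries). The all ID4-EGFP+ cells thus span both fractions and the cells between them. The labels list each library as a sample of its own. Whether these drew on separate litters, or on pooled pups, is not stated there. Nor is it stated whether libraries of the same replicate number share a litter or sort day. The p-values below therefore speak only of differences among these sorted samples.

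DNA methyltransferases place a methyl group on cytosine, mostly where a guanine follows (CG). After replication UHRF1 binds hemimethylated CG and brings in DNMT1, which copies the pattern to the new strand. DNMT3A and DNMT3B methylate unmarked sites, with DNMT3L as an inactive cofactor that is known for its role in fetal male germ cells. TET enzymes oxidise methylcytosine, and GADD45 proteins are stress-response factors that also have been linked to demethylation through DNA repair. In the young testis, undifferentiated spermatogonia give rise to KIT-positive differentiating spermatogonia, and DNMT3A and DNMT3B are known to increase along that path.

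Gadd45b, Tet3 and Dnmt3b were lower in TSPAN8-high than in TSPAN8-low cells. Their promoter windows are shown with that of Gadd45a, the paralogue of Gadd45b that did not pass the test. Each is the 250 bases before the annotated transcription start, 5′ to 3′ on the gene's strand, from RefSeq on GRCm38.p6, with every CG in capitals. The files themselves were made on another build (mm9), and no coordinate is taken from them.
Gadd45b, chr10:80929841-80930090, plus strand: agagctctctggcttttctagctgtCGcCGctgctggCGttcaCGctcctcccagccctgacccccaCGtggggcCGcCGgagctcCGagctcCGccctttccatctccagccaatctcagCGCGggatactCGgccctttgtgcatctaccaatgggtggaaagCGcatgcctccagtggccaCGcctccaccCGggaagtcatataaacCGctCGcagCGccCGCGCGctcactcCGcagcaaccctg
Tet3, chr6:83441679-83441928, minus strand: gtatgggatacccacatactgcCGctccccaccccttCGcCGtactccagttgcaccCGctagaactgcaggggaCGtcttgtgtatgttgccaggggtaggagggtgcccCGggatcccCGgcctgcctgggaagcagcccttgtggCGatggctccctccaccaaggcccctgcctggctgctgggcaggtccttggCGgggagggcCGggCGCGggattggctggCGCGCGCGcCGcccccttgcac
Dnmt3b, chr2:153649199-153649448, plus strand: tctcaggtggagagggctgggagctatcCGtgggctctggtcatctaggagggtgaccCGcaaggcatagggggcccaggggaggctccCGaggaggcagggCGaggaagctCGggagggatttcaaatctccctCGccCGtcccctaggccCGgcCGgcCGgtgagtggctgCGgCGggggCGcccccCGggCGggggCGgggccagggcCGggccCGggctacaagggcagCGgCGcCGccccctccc
Gadd45a, chr6:67037408-67037657, minus strand: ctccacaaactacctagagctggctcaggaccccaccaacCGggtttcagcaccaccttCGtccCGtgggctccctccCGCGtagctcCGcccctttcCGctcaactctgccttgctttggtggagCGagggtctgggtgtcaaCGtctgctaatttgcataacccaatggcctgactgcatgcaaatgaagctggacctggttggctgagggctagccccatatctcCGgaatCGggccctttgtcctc

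The windows of Gadd45b, Dnmt3b and Tet3 held 22, 21 and 17 CG dinucleotides, and that of Gadd45a held 11. Over the 32851 RefSeq promoter windows of the same length, the median was 6 and the 90th percentile 25. All 4 windows were thus richer in CG than the typical mouse promoter window. Windows of the other genes, some of which have several, held from 2 CG (Dnmt1) to 51 (Tet2). Those of Dnmt3a and Uhrf1 held up to 40 and 30. The genes that passed thus did not stand apart by CG count. Motifs were searched as letters on both strands. CANNTG, the letters of an E-box, occurred once in each window, as CACGTG in Gadd45b, CAGTTG in Tet3, CAGGTG in Dnmt3b and CAAATG in Gadd45a, and in 66.2% of all windows. GGGCGG, the letters of a GC box, occurred 3 times in Dnmt3b and once in each of the others, and in 32.7% of all windows. TGACGTCA and TGANTCA, the letters that CREB and AP-1 factors are known to read, were in none of the 4 windows and in 1.55% and 6.75% of all windows. No match of one motif overlapped a match of another in these windows. These matches are descriptions of letters. No binding or methylation was measured in these libraries. All 4 windows overlap an annotated transcript. Per the mouse annotation GENCODE M21, the Tet3 window overlaps the first exon of a noncoding gene on the other strand (B230319C09Rik).

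Levels are given as FPKM, fragments scaled by transcript length and by the library's mapped fragments, a scale on which genes can be compared. Averaged over all ID4-EGFP+ libraries, Uhrf1 was highest at 21.8 ± 6.38 FPKM (SD, n = 3), followed by Dnmt1 at 13.2 ± 1.77 and Dnmt3b at 12.0 ± 0.777. Dnmt1 and Dnmt3b were not separated by their spread. Next came Gadd45a at 8.45 ± 0.760, Gadd45b at 6.67 ± 0.239 and Dnmt3a at 3.23 ± 0.858 FPKM, with no overlap between neighbours. Tet3 followed at 0.977 ± 0.119 and Dnmt3l at 0.534 ± 0.115 FPKM. Tet1 and Tet2 were lowest, at 0.0811 ± 0.0219 and 0.0548 ± 0.0358 FPKM, and their ranges overlapped. The order changed at 3 places in the sorted fractions. In TSPAN8-low cells Dnmt3b (13.9 ± 3.55 FPKM) stood above Dnmt1 (12.2 ± 2.04), in TSPAN8-high cells Dnmt3l (0.667 ± 0.502) stood above Tet3 (0.393 ± 0.0315), and Tet2 stood above Tet1 there. In each of these pairs the ranges overlapped. The copying pair Uhrf1 and Dnmt1 together with Dnmt3b thus made up the top 3 levels in every group.

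**Figure D1:**
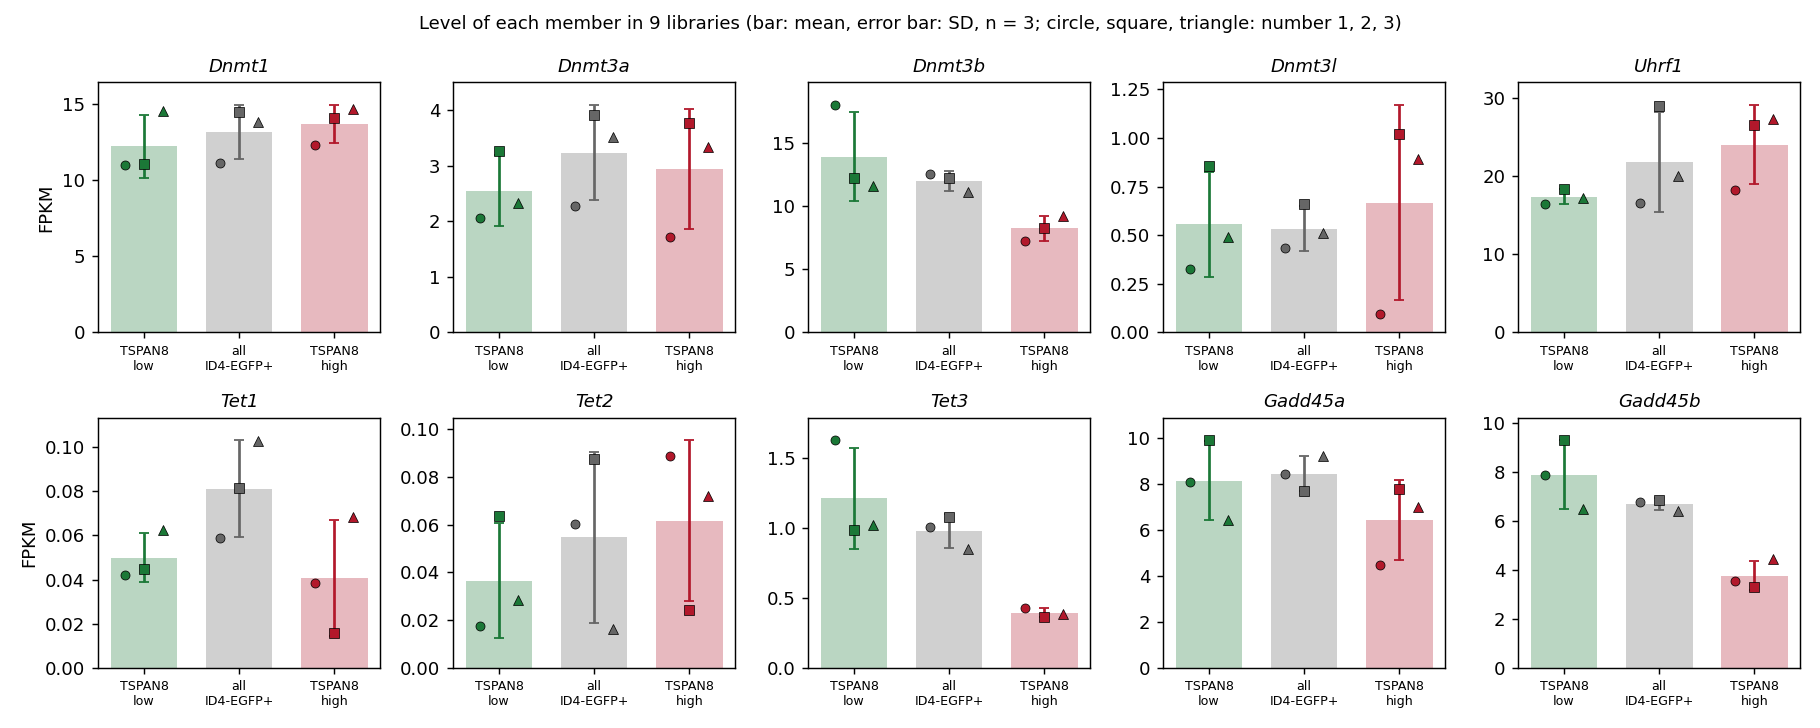
FPKM (vertical axis, from 0, scaled per panel) of each of the 10 genes in TSPAN8-low, all ID4-EGFP+ and TSPAN8-high; bars are means, error bars SD (n = 3), and circles, squares and triangles the libraries of replicate 1, 2 and 3. The TSPAN8-high points of Dnmt3b, Tet3 and Gadd45b lie under all points of both other groups, while the groups overlap for the other 7 genes.

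A gene was tested where its FPKM reached 1 in at least 3 of the 9 libraries, which 7 of the 10 genes did, among 11130 genes. Dnmt3l, Tet1 and Tet2 fell under this minimum. Tet3 met it with 4 libraries, all of them all ID4-EGFP+ or TSPAN8-low, so that it was tested only through the groups in which it was higher. Tests were run with limma on log2(FPKM + 1), with Benjamini-Hochberg adjustment over all tested genes and a threshold of 0.05. Fold changes on this scale understate the change of genes with low FPKM. In bulk libraries of sorted cells, fewer cells that express a gene and less RNA per cell cannot be told apart. Between TSPAN8-high and TSPAN8-low, 3 of the 7 tested genes passed, all of them lower in TSPAN8-high. Over all tested genes 5.55% passed in either direction and 2.15% were lower. With the replicate number as a block the same 3 genes passed, where 19.1% of all tested genes did and 7.35% were lower.

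Neither gene of the copying machinery passed between cells with much and with little TSPAN8. Uhrf1, which recognises hemimethylated CG, stood at 18.2, 26.5 and 27.3 FPKM in the TSPAN8-high libraries, 16.5, 18.4 and 17.2 in the TSPAN8-low libraries, and 16.6, 28.9 and 20.0 in all ID4-EGFP+. The TSPAN8-low values lay close together and TSPAN8-high replicate 1 fell among them, so the fractions overlapped. The log2 difference was 0.43 (SE 0.21, 95% interval -0.03 to 0.88, adjusted p = 0.257, or 0.0555 with the replicate number as a block). Dnmt1, the copying methyltransferase, was at 12.3, 14.1 and 14.7 FPKM in the TSPAN8-high libraries, 11.0, 11.1 and 14.6 in the TSPAN8-low libraries, and 11.2, 14.5 and 13.8 in all ID4-EGFP+. The groups overlapped, with a log2 difference between fractions of 0.16 (SE 0.16, interval -0.19 to 0.51, adjusted p = 0.599). The intervals leave room for a rise in FPKM + 1 of up to 1.84-fold for Uhrf1 and 1.43-fold for Dnmt1. Uhrf1 is known to be expressed with the genes of DNA replication. The 16 of these that were tested summed to 929, 1244 and 1256 FPKM in the TSPAN8-high libraries, 876, 997 and 981 in the TSPAN8-low libraries, and 908, 1249 and 1070 in all ID4-EGFP+, so that here too the TSPAN8-low libraries lay close together and replicate 1 was lowest in each group. The part of replication in the Uhrf1 values was not tested.

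Of the enzymes of new methylation Dnmt3b passed and Dnmt3a did not, and whether their differences differ was not tested. Dnmt3b measured 7.20, 8.25 and 9.23 FPKM in the TSPAN8-high libraries, 18.0, 12.2 and 11.6 FPKM in the TSPAN8-low libraries, and 12.6, 12.3 and 11.1 in all ID4-EGFP+. Every TSPAN8-high value lay under every value of the other groups, and TSPAN8-low replicate 1 was the highest library. Dnmt3b was 1.69-fold lower in TSPAN8-high, with a log2 difference of -0.67 (SE 0.18, adjusted p = 0.0458). This call was close to the threshold: it was kept without TSPAN8-low replicate 3 (adjusted p = 0.0449) but lost without any other single library, where adjusted p ran from 0.0558 to 0.136. It was also lost without the minimum FPKM (0.0947) and in a fit of the 2 fractions alone (0.0749). Without TSPAN8-low replicate 1 the log2 difference was -0.49. Dnmt3a, the paralogue, was at 1.73, 3.78 and 3.34 FPKM in the TSPAN8-high libraries, 2.06, 3.27 and 2.33 in the TSPAN8-low libraries, and 2.27, 3.91 and 3.52 in all ID4-EGFP+. Here the groups overlapped and replicate 1 was lowest in each. Its log2 difference was 0.13 (SE 0.23, interval -0.38 to 0.63, adjusted p = 0.791). Dnmt3l was low and scattered, at 0.0924, 1.02 and 0.890 FPKM in the TSPAN8-high libraries, 0.326, 0.854 and 0.489 in the TSPAN8-low libraries, and 0.433, 0.660 and 0.509 in all ID4-EGFP+. In a fit with no minimum its log2 difference was 0.06 (adjusted p = 0.927). GENCODE M21 places Dnmt3aos on the strand opposite to Dnmt3a and Aire opposite to Dnmt3l. Strand is not kept by this cDNA kit, and reads of such pairs were counted without telling them apart. Aire itself was listed at 0 FPKM throughout.

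Ratios within a library do not depend on its scaling. Dnmt3b exceeded Dnmt3a in FPKM in all 9 libraries, by 4.17, 2.19 and 2.76 times in TSPAN8-high, 8.72, 3.73 and 4.97 times in TSPAN8-low, and 5.53, 3.13 and 3.15 times in all ID4-EGFP+. Within each replicate number the ratio was lowest in TSPAN8-high and highest in TSPAN8-low, although the groups overlapped. The ratio of Dnmt1 to Dnmt3b was 1.71, 1.70 and 1.59 in TSPAN8-high, above every TSPAN8-low value (0.612, 0.910 and 1.26) and every all ID4-EGFP+ value (0.889, 1.19 and 1.25). Relative to Dnmt3b RNA, Dnmt1 RNA was thus highest in the TSPAN8-high libraries. These ratios were chosen after the values were seen and carry no test.

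**Figure D2:**
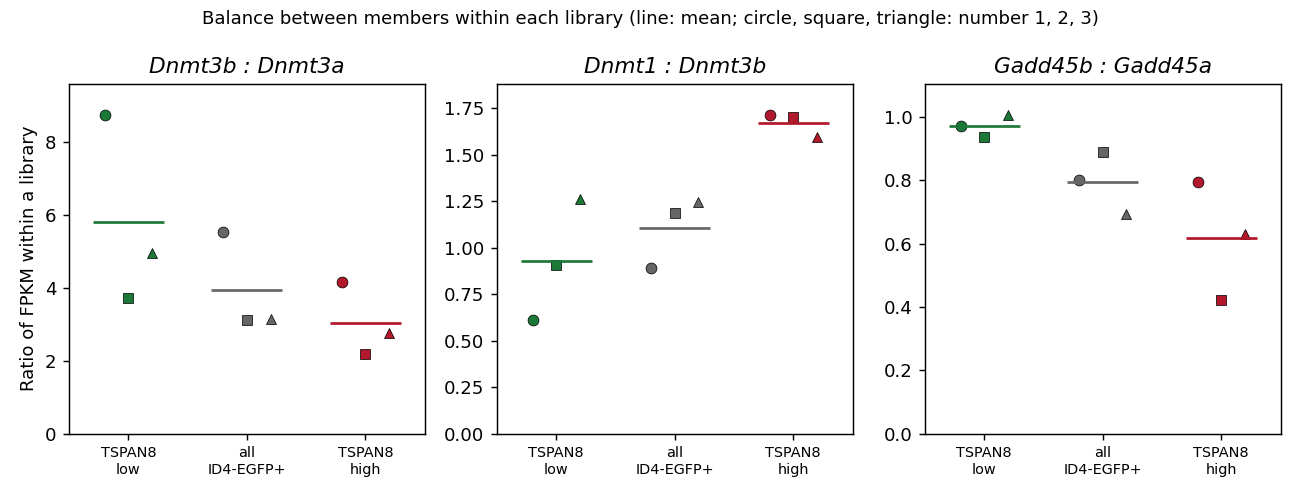
Ratio of FPKM within each library (vertical axis, from 0) of Dnmt3b to Dnmt3a, Dnmt1 to Dnmt3b and Gadd45b to Gadd45a, by group; lines are means and circles, squares and triangles the libraries of replicate 1, 2 and 3. The ratio of Dnmt1 to Dnmt3b is at least 1.59 in the TSPAN8-high libraries and at most 1.26 in the others, while the groups overlap for Dnmt3b to Dnmt3a.

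Of the TET enzymes, only Tet3 reached the minimum. Tet3 measured 0.427, 0.365 and 0.386 FPKM in the TSPAN8-high libraries, 1.62, 0.984 and 1.02 FPKM in the TSPAN8-low libraries, and 1.00, 1.08 and 0.846 in all ID4-EGFP+. The 3 TSPAN8-high values lay close together, under every other value, and TSPAN8-low replicate 1 was again the highest library. Mean FPKM was 3.08-fold lower in TSPAN8-high, and the log2 difference was -0.65 (SE 0.14, adjusted p = 0.0243). With a pseudocount of 0.1 in place of 1 the log2 difference was -1.38. Leaving out TSPAN8-high replicate 2 ended the call (adjusted p = 0.0888), as did leaving out TSPAN8-high replicate 3 (0.0733) or TSPAN8-low replicate 1 (0.0694). It was kept without each of the other 6 libraries. Tet1 lay between 0.0157 and 0.103 FPKM and Tet2 between 0.0164 and 0.0890 over the 9 libraries, with overlapping groups. With no minimum, the log2 difference was -0.01 for Tet1 (adjusted p = 0.858) and 0.03 for Tet2 (0.661). Tet3 made up 77.0, 90.1 and 73.4% of the summed Tet FPKM in the TSPAN8-high libraries and 96.5, 90.1 and 91.9% in the TSPAN8-low libraries. The sum was 0.496 ± 0.0795 FPKM in TSPAN8-high, 1.30 ± 0.335 in TSPAN8-low and 1.11 ± 0.142 in all ID4-EGFP+ (SD, n = 3 each). Most Tet RNA in all 3 groups was thus Tet3, and the lower sum in TSPAN8-high followed Tet3.

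Among the GADD45 genes Gadd45b had the smallest adjusted p of the 10 genes. It measured 3.55, 3.29 and 4.44 FPKM in the TSPAN8-high libraries, 7.88, 9.28 and 6.48 FPKM in the TSPAN8-low libraries, and 6.76, 6.85 and 6.40 in all ID4-EGFP+. All TSPAN8-high values lay under all others, and the all ID4-EGFP+ libraries differed little among themselves. Gadd45b was 2.10-fold lower in TSPAN8-high, with a log2 difference of -0.90 (SE 0.16, interval -1.24 to -0.55, adjusted p = 0.0099). The call was kept without each of 8 libraries and ended when TSPAN8-high replicate 2 was left out (adjusted p = 0.0528). Gadd45a was at 4.46, 7.80 and 7.02 FPKM in the TSPAN8-high libraries, 8.11, 9.90 and 6.45 in the TSPAN8-low libraries, and 8.43, 7.70 and 9.22 in all ID4-EGFP+. TSPAN8-high replicate 1 was the lowest library and the fractions overlapped, with a log2 difference of -0.31 (SE 0.20, interval -0.75 to 0.12, adjusted p = 0.389). Whether the difference of Gadd45b exceeds that of Gadd45a was not tested. The ratio of Gadd45b to Gadd45a was 0.796, 0.421 and 0.632 in TSPAN8-high, all under the 0.972, 0.937 and 1.00 of TSPAN8-low, and 0.803, 0.890 and 0.694 in all ID4-EGFP+. GENCODE M21 places E230016M11Rik opposite to Gadd45a, listed at no more than 1.98 FPKM, and no gene's exons over those of Gadd45b, Tet3 or Dnmt3b. Gadd45g, the remaining paralogue, measured 6.47, 6.03 and 8.34 FPKM in the TSPAN8-high libraries and 10.1, 11.8 and 9.71 FPKM in the TSPAN8-low libraries, without overlap, but did not pass (log2 difference -0.54, SE 0.17, adjusted p = 0.0860, or 0.0249 with the replicate number as a block).

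**Figure D3:**
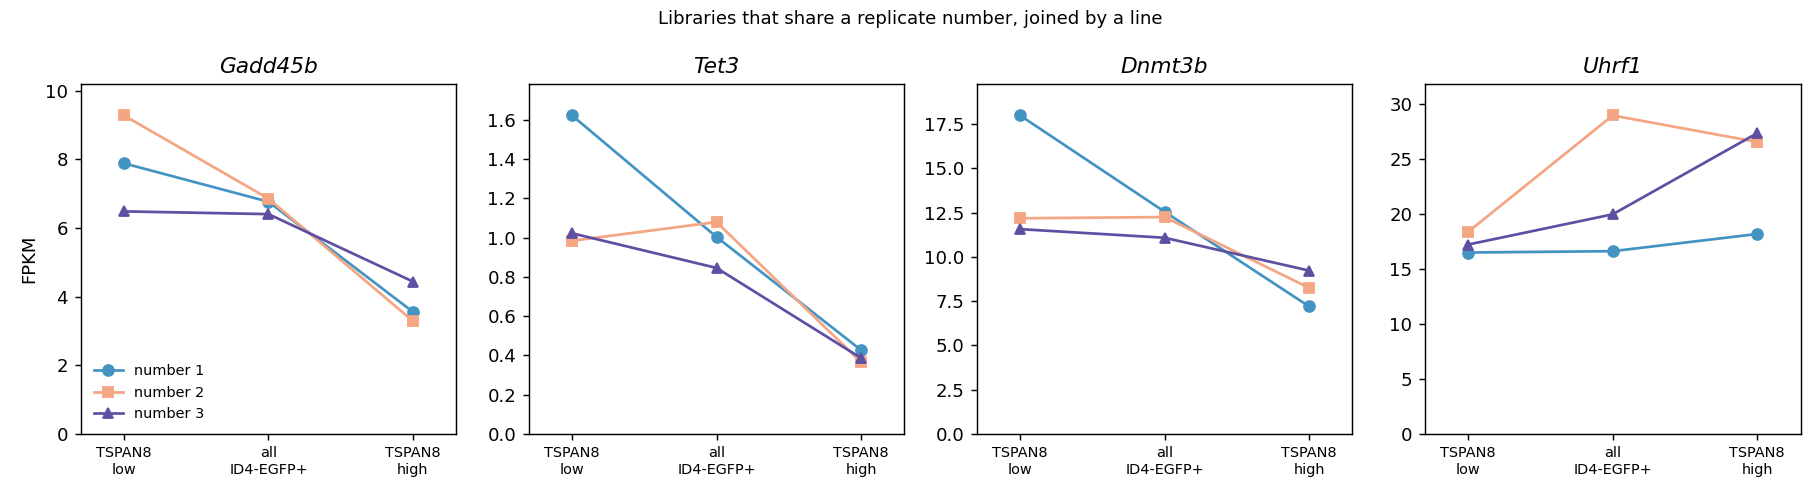
FPKM (vertical axis, from 0) of Gadd45b, Tet3, Dnmt3b and Uhrf1 in TSPAN8-low, all ID4-EGFP+ and TSPAN8-high, with a line joining the libraries that share a replicate number. For Gadd45b, Tet3 and Dnmt3b the TSPAN8-high point is the lowest on all 3 lines, and for Uhrf1 the TSPAN8-low point is.

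The 3 genes that passed were lower in TSPAN8-high in 3 of 3 replicate numbers, with no overlap between fractions. Over all tested genes 9.72% were lower without overlap. For each of the 3, the exact two-sided permutation test of 3 libraries against 3 gave p = 0.1, the smallest that this design allows. The 3 genes were picked by their limma test on the same libraries. Neither the lack of overlap nor this p is therefore separate support. Over the 9 libraries Dnmt3b and Tet3 had a Pearson r of 0.95 on log2(FPKM + 1), Tet3 and Gadd45b 0.88, and Dnmt3b and Gadd45b 0.86. Uhrf1 had an r of 0.78 with Dnmt3a and 0.71 with Dnmt1. These values describe 9 libraries in 3 groups, which share the group differences already given. All tested genes were then searched for the highest r to Gadd45b and Tet3, the 2 genes with the smallest p between the fractions. A fall in TSPAN8-high was thus largely built into the choice. The values of the genes found are descriptions and no further support. By the highest r over the 9 libraries, the tested genes most like Gadd45b were Mogs (0.987), Crat (0.983) and Trp53i11 (0.974). Mogs encodes a glucosidase that trims N-glycans, and Crat carnitine acetyltransferase. Of these 3 only Trp53i11 passed between the fractions, at a log2 difference of -0.69 (SE 0.15, adjusted p = 0.0246). With the replicate number as a block Mogs passed too (-0.38, adjusted p = 0.0475). Trp53i11 lost the call with no minimum FPKM (0.0620) and without TSPAN8-high replicate 1, TSPAN8-high replicate 2, TSPAN8-low replicate 1 or TSPAN8-low replicate 2 (up to 0.0842). Most like Tet3 were Mlec (0.975), which encodes the endoplasmic reticulum lectin malectin, Tmeff1 (0.974) and Ndrg4 (0.972). Ndrg4 measured 8.97, 7.12 and 7.96 FPKM in the TSPAN8-high libraries and 24.6, 17.4 and 16.5 FPKM in the TSPAN8-low libraries, a log2 difference of -1.17 (SE 0.18, adjusted p = 0.0055). Tmeff1 fell by 0.87 (SE 0.20, adjusted p = 0.0287), a call lost with no minimum FPKM (0.0802) and without TSPAN8-high replicate 2, TSPAN8-high replicate 3 or TSPAN8-low replicate 1 (up to 0.0908).

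All 3 comparisons with all ID4-EGFP+ use the same 3 libraries as reference. In TSPAN8-high against all ID4-EGFP+, 0 of the 7 tested genes passed with limma, where 0.144% of all tested genes did. At an unadjusted p under 0.05 there were 3 of the 7 and 1084 of all tested genes. These were Gadd45b, with a log2 difference of -0.70 (SE 0.16, adjusted p = 0.0839), Tet3 with -0.50 (SE 0.14, 0.196) and Dnmt3b with -0.49 (SE 0.18, 0.343). None of the 3 overlapped between these groups, as for 8.35% of tested genes in that direction. With the replicate number as a block Gadd45b passed (adjusted p = 0.0296), where 3.09% of all tested genes did and 1.86% were lower, but not with the block and no minimum FPKM (0.166) or with the block and any 1 replicate number left out (0.0686 to 0.178). The other 4 tested genes had adjusted p of 0.626 or more. In TSPAN8-low against all ID4-EGFP+ the same 3 genes had log2 differences of 0.20 (Gadd45b), 0.15 (Tet3) and 0.18 (Dnmt3b). None of the 7 passed, with 0.708 as the smallest adjusted p. With limma 0 of all tested genes passed (0%), 909 had an unadjusted p under 0.05, none of them among the 7, and 5 (0.0449%) passed with the block. When the fractions were averaged and set against all ID4-EGFP+, 0 of the 7 and 0 of all tested genes passed (0%), 377 had an unadjusted p under 0.05, again with none of the 7, and 2 (0.018%) passed with the block.

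**Figure D4:**
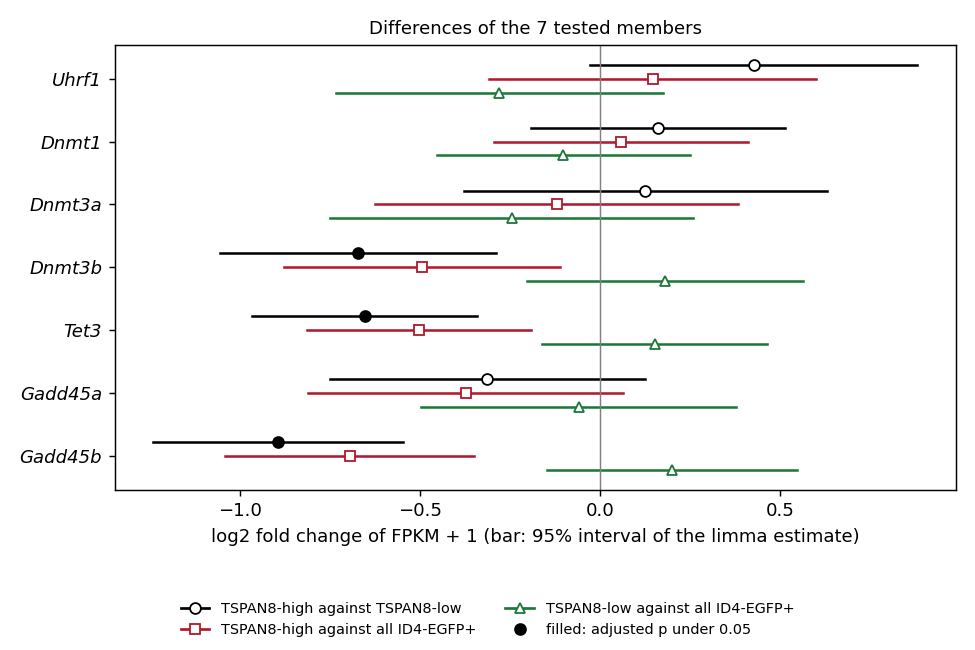
Log2 differences of the 7 tested genes with their 95% intervals in 3 contrasts; circles stand for TSPAN8-high against TSPAN8-low, squares and triangles for TSPAN8-high and TSPAN8-low against all ID4-EGFP+, and filled symbols passed at an adjusted p under 0.05. Gadd45b, Tet3 and Dnmt3b lie under 0 in both contrasts of TSPAN8-high, at -0.90, -0.65 and -0.67 against TSPAN8-low, and their intervals cross 0 in TSPAN8-low against all ID4-EGFP+.

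Other genes of the pathway were counted from lists of related genes in TSPAN8-high against TSPAN8-low, where the median log2 difference of all tested genes was 0.05, and 3.41% rose and 2.15% fell. With the replicate number as a block 11.8% of all tested genes rose and 7.35% fell, which stand beside each count with the block below. Among 18 partners and recruiters of the methyltransferases, 1 rose and 1 fell, with a median of 0.05. Dppa3, which encodes a germline protein that binds UHRF1 and holds back copying of methylation, measured 0.604, 0.511 and 0.144 FPKM in the TSPAN8-high libraries and 2.54, 2.94 and 0.931 FPKM in the TSPAN8-low libraries. Dppa3 reached 1 FPKM in 4 libraries, none of them TSPAN8-high, so that, like Tet3, it was tested only through the groups in which it was higher. It fell by 1.09 on the log2 scale (SE 0.28, adjusted p = 0.0420), kept only without all ID4-EGFP+ replicate 1, all ID4-EGFP+ replicate 2 or TSPAN8-low replicate 3 and otherwise lost (up to 0.147). Dppa3 has many processed copies in the mouse genome, which makes its estimate uncertain. Suv39h1, a histone H3 lysine methyltransferase, rose from 31.9 ± 1.69 to 54.0 ± 12.2 FPKM (SD, n = 3 each; log2 difference 0.72, SE 0.19, adjusted p = 0.0447). It kept the call without all ID4-EGFP+ replicate 2 or TSPAN8-high replicate 1 and lost it without any other single library (up to 0.169), and under each of 3 other scalings (0.0632 to 0.0678). Of 8 readers of methylated CG, 5 were tested and none passed (median 0.05); Mbd1 had the smallest p (log2 difference 0.42, adjusted p = 0.119).

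The genes that supply the methyl donor gave 12 tested of 13, none of them past the threshold, with a median of 0.18. With the replicate number as a block 4 rose. Mtr, methionine synthase, averaged 15.4 ± 4.13 FPKM in the TSPAN8-high libraries and 8.16 ± 1.36 FPKM in the TSPAN8-low libraries, with no overlap (log2 difference 0.81, SE 0.23, adjusted p = 0.0560, or 0.0024 with the block). Among 12 base excision repair genes, which act after oxidation of methylcytosine, 1 rose (3 with the block) and the median was 0.06. That gene, the glycosylase Neil3, was at 14.6 ± 4.18 against 8.54 ± 0.386 FPKM (log2 difference 0.68, SE 0.18, adjusted p = 0.0447). The call of Neil3 was lost without any of the 9 libraries (0.0545 to 0.110) and under each of the 3 other scalings. Tdg, the glycosylase that acts on TET products, had a log2 difference of 0.03 (adjusted p = 0.955). Of 7 TET partners and cofactor enzymes, 6 were tested, none passed (1 rose with the block) and the median was 0.20. Idh2, which makes the 2-oxoglutarate that TET enzymes use, was at 10.7 ± 3.79 against 5.66 ± 2.10 FPKM, with overlap (log2 difference 0.82, SE 0.29, adjusted p = 0.130, or 0.0017 with the block). Of 4 cytosine deaminases only Apobec3 reached the minimum, at 1.91 ± 0.690 against 1.09 ± 0.492 FPKM (adjusted p = 0.229, or 0.0283 with the block). Of 8 genes around GADD45, 6 were tested, none passed (Gadd45g with the block) and the median was -0.03.

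Lists from outside the pathway were set beside these. Among the 16 DNA replication genes 1 fell and none rose (2 fell and 4 rose with the block), with a median of 0.28. The gene that fell was Ccne2, a cyclin of the entry into S phase, which measured 20.1, 18.6 and 15.0 FPKM in the TSPAN8-high libraries and 34.6, 30.6 and 34.3 FPKM in the TSPAN8-low libraries (log2 difference -0.86, SE 0.16, adjusted p = 0.0113). Of 12 immediate early genes, which answer stress and growth signals, 9 were tested; 1 rose (5 with the block) and the median was 0.46. That gene was Junb (log2 difference 0.69, SE 0.18, adjusted p = 0.0410), which kept the call without any 1 of the all ID4-EGFP+ libraries and lost it without any 1 of the other 6 (up to 0.135) and under each of the 3 other scalings. Without a minimum FPKM none of Dppa3, Suv39h1, Neil3 and Junb passed. The summed immediate early level ran from 157 to 185 FPKM in the TSPAN8-high libraries and from 107 to 137 FPKM in the TSPAN8-low libraries. Any link between this level and that of Gadd45b was not tested. Of 10 genes of differentiating spermatogonia 5 fell (7 with the block), none rose, and the median was -0.68. Kit, the receptor that marks these cells, was at 1.79 ± 0.293 against 6.35 ± 1.67 FPKM (log2 difference -1.38, SE 0.18, adjusted p = 0.0026), and Dmrtb1 and Crabp1 fell by 1.23 and 1.65. Dmrtb1 met the minimum through the 6 all ID4-EGFP+ and TSPAN8-low libraries alone, and was at most 0.955 FPKM in TSPAN8-high. The summed level of the 10 differentiation genes was 408 to 476 FPKM in TSPAN8-high, 871 to 970 in TSPAN8-low and 670 to 866 in all ID4-EGFP+. Crabp1 alone averaged 144, 454 and 328 FPKM in the same order of groups, a large part of each sum. As a mean of log2(FPKM + 1) the 10 genes stood at 3.81 to 3.96, 4.56 to 4.77 and 4.37 to 4.72. By both measures the level was lowest in the same 3 libraries as Gadd45b, Tet3 and Dnmt3b. The part of the share of differentiating cells in these 3 differences was not tested.

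**Figure D5:**
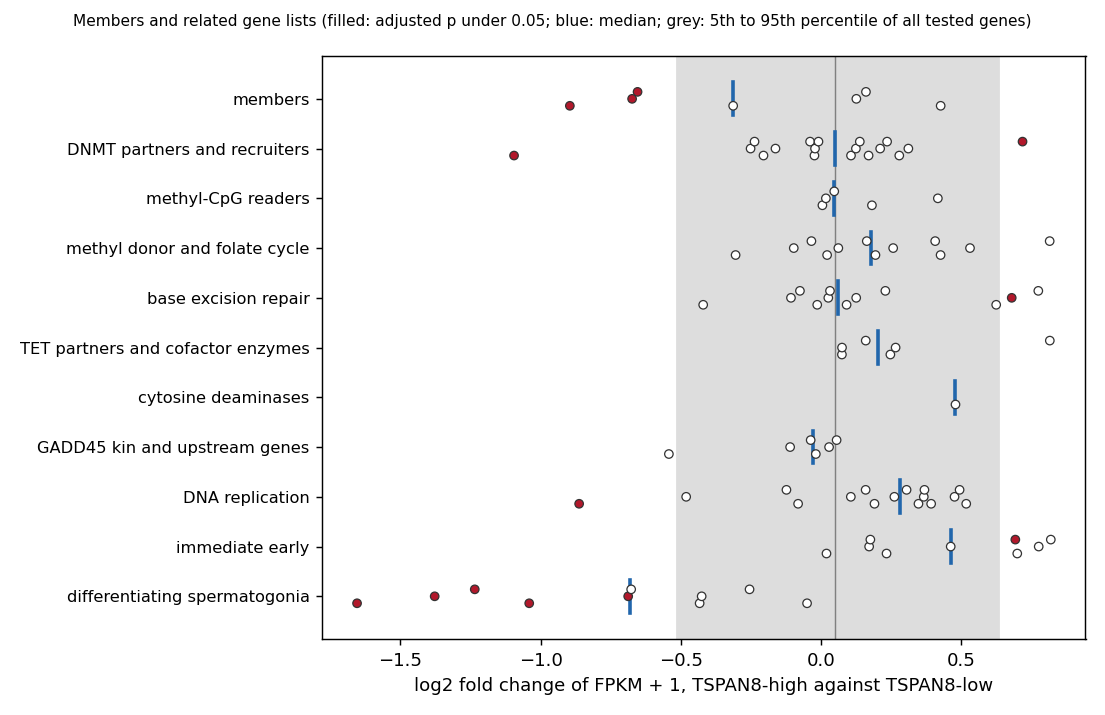
Log2 differences, TSPAN8-high against TSPAN8-low, for each tested gene of the 10 and of the related lists. Filled points passed at an adjusted p under 0.05, blue bars are medians and the grey band spans the 5th to 95th percentile of all tested genes; the 3 filled points of the first line lie to the left of the band, as do the 5 filled points of the differentiating genes.

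Libraries and labels were checked once for the whole table. Tspan8, the sorted protein's gene, averaged 34.0 FPKM in the TSPAN8-high libraries and 9.73 FPKM in the TSPAN8-low libraries, and Id4 averaged 67.2 and 26.2 FPKM. All 7 germ cell markers were tested and none passed (2 rose with the block). Their summed levels were 3243 to 3877 FPKM in the TSPAN8-high libraries and 3059 to 3658 FPKM in the TSPAN8-low libraries. The 7 stem cell markers summed to 139 to 153 and 41.4 to 73.9 FPKM, and all 7 rose in TSPAN8-high. Of 12 Sertoli markers 6 were tested and none passed (6 rose with the block), with sums of 189 to 390 FPKM in TSPAN8-high, 79.9 to 247 in TSPAN8-low and 103 to 216 in all ID4-EGFP+. Of the Sertoli markers, Clu was at 19.1, 24.2 and 60.6 against 2.38, 3.45 and 31.6 FPKM. Cst9, Cst12, Aard, Inha and Ctsl also averaged higher in TSPAN8-high. Their means were 37.8, 25.9, 19.2, 15.0 and 135 against 16.1, 9.88, 8.85, 7.31 and 96.6 FPKM. The untested ones stayed low over the 9 libraries. Amh was at most 0.714, Sox9 0.197, Wt1 0.616, Gata4 0.691, Dhh 1.00 and Fshr 1.27 FPKM. No marker was at 0 in all libraries, and no Leydig, endothelial or red blood cell marker reached the minimum. The Leydig marker Insl3 was still at 4.82 FPKM in TSPAN8-low replicate 3, and at most 0.466 elsewhere. The 5 Leydig markers summed to 6.35 FPKM in that library and to at most 1.44 elsewhere. The 4 leukocyte markers summed to 12.5 to 20.7 FPKM in TSPAN8-high, 5.13 to 12.7 in TSPAN8-low and 7.49 to 11.7 in all ID4-EGFP+. Of these, Cd68 alone was tested and did not pass (adjusted p = 0.251, or 0.0384 with the block), Lyz2 was at 7.95 FPKM in TSPAN8-high replicate 3 and at most 0.989 elsewhere, and Ptprc and Csf1r were at most 0.177 and 0.294. The 5 peritubular myoid markers summed to 3.57 to 7.63, 1.55 to 3.73 and 2.35 to 4.95 FPKM in the same order of groups, with 2 tested and none passed. The part of Sertoli, Leydig, leukocyte or myoid RNA in the differences of Gadd45b, Tet3 and Dnmt3b was not tested. Relative depth, estimated from low FPKM values, was 0.853 to 0.943 in TSPAN8-low and 1.01 to 1.04 in TSPAN8-high, against 1 in all ID4-EGFP+ replicate 1, and 10532 to 10950 entries per library reached 1 FPKM. Total fragment counts are not in the tables used here, so absolute depth is unknown. Within groups r was at least 0.981 across genes. Of the genes that passed between the fractions, 379 were higher and 239 lower in TSPAN8-high, a split that was 222 and 307 with the authors' normalized values, 254 and 360 with a common median and 249 and 298 after quantile normalization. Gadd45b, Tet3 and Dnmt3b were lower and passed under all 3.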

How the data were processed

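The authors deposited an FPKM table made with Cufflinks, and its 9 library columns were the values tested. A second deposited table, of further scaled values (taken as signal), served one alternative. SMART-Seq v4 cDNA and Nextera XT libraries with paired-end reads are named per the labels' protocols. Alignment and quality tools were TopHat2 2.0.12, Bowtie2 2.2.3.0 and FastQC, on mm9, per the submitters' processing notes, where no Cufflinks version or annotation is named. There is 1 value per gene, so isoforms were not separated.

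Left out were 262 symbols that stood on 768 entries and 27 entries showing a date. A gene needed 1 FPKM in 3 of 9 libraries, which left 11130. One limma 3.58.1 model (R 4.3.3) over the 3 groups took log2(FPKM + 1), unscaled, with a trend in eBayes and two-sided p-values adjusted by Benjamini-Hochberg at 0.05. The code was tested on simulated data. Intervals use limma's degrees of freedom. Python 3.11.15, SciPy 1.17.1, pandas 2.3.3 and matplotlib 3.10.9 gave the exact permutation tests, correlations and figures. RefSeq promoter windows on GRCm38.p6 were found for all 10 genes.

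Further genes were named by rule: up to 3 tested genes of each list with the smallest p between the fractions, and the 3 genes with the highest r to each of the 2 genes of smallest p. Tdg was added after its values were seen. The genes and lists were chosen with earlier results of these data known.

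Groups share replicate numbers. Deviations from the group means correlated at 0.26 to 0.48 across genes in the 9 pairs of libraries with one number, and at -0.46 to 0.28 in the 18 other pairs. The numbers were therefore used as pairs in the fits with the replicate block, on the evidence of the data and not of the labels. The main fit held no replicate term, so its SEs, intervals and adjusted p-values ignore this pairing. Block values are given where they change a call or a count, and for Uhrf1 between the fractions.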

Additional observations from a re-analysis of the deposited data

How the results depend on the processing

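The fall of Gadd45b, Tet3 and Dnmt3b in TSPAN8-high against TSPAN8-low kept its direction in every alternative run: other pseudocounts (0.1 and 0.5), no minimum or 1 FPKM in all 9 libraries (which leaves Tet3 without a value), the authors' normalized values, a common median, quantile normalization, eBayes without trend, the replicate block, only the groups compared, and leaving out libraries. Settings that join the block with another choice were added after seeing the data. Leaving out libraries, the number of these genes that passed ran from 0 to 3. None of the 3 passed without replicate 1 or without replicate 2 of all groups, where Gadd45b had adjusted p of 0.0520 and 0.184. Leaving out the single library TSPAN8-high replicate 2 also ended all 3 calls, with 185 of all tested genes passing. No called value changed sign. Uhrf1 passed in 1 setting (block without replicate 1, adjusted p = 0.0400).

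Pairing by the replicate block lowered the adjusted p of the 3 genes to 0.0025, 0.0086 and 0.0138 and changed no other call among the 10 genes between the fractions. In TSPAN8-high against all ID4-EGFP+ it gave 1 call (Gadd45b), also with the authors' normalized values, a common median or quantile normalization, but not with no minimum (adjusted p = 0.166) or without replicate 1, 2 or 3 (0.178, 0.0964 and 0.0686). Between the fractions, the block with no minimum left Gadd45b and Tet3 past the threshold, and the block without replicate 1, 2 and 3 left 1, 3 and 2 of the 3 genes. Over all tested genes, 618 passed between the fractions, 294 with no minimum, 2130 with the block, and 1944, 2027, 1971 and 1026 with the block and normalized values, common median, quantile normalization or no minimum. Leaving out libraries gave 10 (without replicate 2 of all groups) to 632, and with the block 1604, 1147 and 782 (without replicate 1, 2 and 3). In TSPAN8-high against all ID4-EGFP+, 16 passed, 0 with no minimum, 7 with normalized values, 27 with only the groups compared, 344 with the block, 360, 306, 359 and 0 with the block and the same 4 choices, and, leaving out libraries, 0 to 111, or 92, 297 and 87 with the block (without replicate 1, 2 and 3). In TSPAN8-low against all ID4-EGFP+ 0 passed, 5 with the block, 28, 25 and 6 with the block and the 3 scalings, and, leaving out libraries, 0 to 1, or 0 to 14 with the block. For the mean of both fractions 0 passed, 2 with the block, 1, 1 and 2 with the block and the 3 scalings, and, leaving out libraries, 0 to 3, or 1 to 62 with the block. The cause of these changes was not tested. With only the groups compared the mean of both fractions could not be fitted. A fit that leaves 1 or 2 libraries in a group rests on the spread of all groups. FPKM without fragment counts give no limit of detection for Tet1, Tet2 or Dnmt3l.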

Other observations

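Of the 10 genes, 4 (Uhrf1, Dnmt1, Dnmt3a and Dnmt3l) were lowest in the replicate 1 library in each of the 3 groups. For 13.3% of all tested genes replicate 1 was lowest in all 3 groups, as for 6 of the 16 DNA replication genes. The 10 genes include Dnmt3l, Tet1 and Tet2, which were not tested, so these shares are taken over unlike sets. Replicate 2 or replicate 3 was lowest in all groups for 0 of the 10 genes, and for 10.8% and 9.06% of tested genes. This pattern was noticed in the values and carries no test.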
